A study of Arabidopsis thaliana with 18 samples.

Results

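Skipped exon events are places where a transcript either contains an internal exon or joins the flanking exons directly. All 321 events whose type was given as skipped exon were taken, of 6553 splicing events in any list and 5403 common to all lists. The same 321 events stood in every library. An exon lay inside the skipped span in 319 of them. In the other 2, in AT5G59610 and across AT1G07120 and AT1G07130, both spans were the same, no exon was given and no inclusion read was counted. The events lay in 275 genes, 31 of which held more than 1 event. They comprised 312 distinct exons and 292 distinct skipping junctions, so events of 1 gene often shared reads.

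The data are polyA RNA sequencing of the first leaf of Arabidopsis thaliana seedlings at 14 days, with 2 biological replicates in each of 9 groups and 18 libraries in all. There were 5 inbred accessions: Col-0, the reference strain, with Bur-0, C24, and also Kro-0 and Ler-1. Each of the last 4 was crossed with Col-0 to give the F1 hybrids Col-0 x Bur-0, Col-0 x C24, Col-0 x Kro-0 and Col-0 x Ler-1. No mutation or treatment is given in the labels. Plants grew on MS plates with 1% sucrose, at 22 °C for 16 h under light of 100 µmol m-2 s-1 and at 18 °C for 8 h in darkness.

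An exon is recognised through an acceptor site before it and a donor site after it, and one with a weak site can be passed over. An exon whose length is divisible by 3 can come and go without shifting the reading frame. Loss of any other coding exon shifts the frame and often meets an early stop codon, and transcripts with such stops are commonly degraded by nonsense-mediated decay. Some plant splicing factor genes carry a so-called poison exon, whose inclusion brings the stop. Microexons are very short exons, here taken as at most 51 nt.

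Libraries held 3186952 to 6134488 reads over their listed events, of which 159985 to 303510 fell on skipped exons. The median skipped exon event had 102 to 192 reads in a library. Replicates of a group differed by a median of 1.02 to 1.76 percentage points over the skipped exons. Whole leaves hold many cell types, so a shift in inclusion within cells and a shift in cell types cannot be told apart here.

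The values are PSI in percent, the inclusion reads divided by the inclusion and skipping reads plus 1. What counts as an inclusion read matters for skipped exons. In all 5560 library values where both flanking junctions were also counted in another event, over 311 events, the inclusion count was the sum of the reads on the junction before and the junction after the exon. The skipping count was the single skipping junction in all 5639 values that could be checked. Inclusion therefore entered PSI over 2 junctions and skipping over 1. The median PSI over exons was 95.3% as deposited (mean of the 18 library medians, SD 0.751). It was 92.8% when the inclusion reads were halved to 1 junction's worth. In 34 of the 311 events the flanking junctions differed more than 4 times. The reason for this was not tested.

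Exons on which the results turn are printed first, from the TAIR10.1 RefSeq genome on the strand of the gene. Of the 319 exons, 274 had these exact ends in an annotated transcript of the gene. The 4 microexons below lie wholly in coding sequence and are at most 27 nt. Capitals mark the exon, with 15 intron bases before it and 6 after it in lower case, so that the acceptor and donor sites can be read.

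NAP1;2, 18 nt, chr2:8440857-8440895, plus strand: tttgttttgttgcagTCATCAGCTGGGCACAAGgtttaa
SFH3, 18 nt, chr2:9221937-9221975, minus strand: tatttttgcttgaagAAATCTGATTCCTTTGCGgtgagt
AT3G60910, 20 nt, chr3:22502391-22502431, plus strand: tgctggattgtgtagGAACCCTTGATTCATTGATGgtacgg
AT2G30600, 25 nt, chr2:13039244-13039289, plus strand: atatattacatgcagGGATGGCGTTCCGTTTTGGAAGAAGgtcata

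The next 5 are exons of splicing regulators whose inclusion brings a stop codon into the reading frame. Only the exon is shown, and the capitals mark that stop codon. SCL33 and SCL30A encode related SR proteins, PTB1 and PTB2 polypyrimidine tract-binding proteins, and SR45a an SR-like protein.

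SCL33, 162 nt, chr1:20631561-20631722, plus strand: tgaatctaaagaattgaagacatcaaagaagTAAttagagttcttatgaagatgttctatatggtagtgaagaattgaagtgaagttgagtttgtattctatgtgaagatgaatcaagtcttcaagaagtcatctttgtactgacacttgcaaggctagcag
SCL30A, 161 nt, chr3:4430483-4430643, minus strand: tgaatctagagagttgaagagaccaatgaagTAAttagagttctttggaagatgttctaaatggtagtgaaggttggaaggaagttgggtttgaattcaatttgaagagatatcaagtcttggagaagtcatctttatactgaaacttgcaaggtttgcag
PTB1, 102 nt, chr3:52645-52746, plus strand: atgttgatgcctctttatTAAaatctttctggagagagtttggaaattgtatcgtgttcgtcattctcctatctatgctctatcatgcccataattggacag
PTB2, 58 nt, chr5:21570834-21570891, minus strand: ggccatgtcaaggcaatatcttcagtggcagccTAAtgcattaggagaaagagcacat
SR45a, 96 nt, chr1:2258750-2258845, minus strand: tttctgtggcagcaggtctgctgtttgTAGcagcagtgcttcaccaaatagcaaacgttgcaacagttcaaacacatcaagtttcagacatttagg

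The last 4 are exons whose inclusion differed between accessions, again with the exon in capitals and intron bases in lower case. Both exons of AT3G05160, a major facilitator family transporter, are divisible by 3. CAT3 is cationic amino acid transporter 3, and AT1G36070 encodes a WD40 repeat protein.

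AT3G05160, 66 nt, chr3:1455490-1455576, minus strand: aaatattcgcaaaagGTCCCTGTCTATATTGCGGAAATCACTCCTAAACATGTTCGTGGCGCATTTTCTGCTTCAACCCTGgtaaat
AT3G05160, 63 nt, chr3:1456528-1456611, minus strand: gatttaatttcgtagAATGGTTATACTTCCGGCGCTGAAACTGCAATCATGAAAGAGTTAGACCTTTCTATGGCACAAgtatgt
CAT3, 76 nt, chr5:14593802-14593898, plus strand: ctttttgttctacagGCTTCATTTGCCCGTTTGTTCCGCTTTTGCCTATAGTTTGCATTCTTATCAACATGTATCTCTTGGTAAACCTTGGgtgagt
AT1G36070, 41 nt, chr1:13469092-13469153, minus strand: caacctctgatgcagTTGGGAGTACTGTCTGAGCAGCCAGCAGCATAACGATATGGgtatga

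The skipped exons were short, and 158 of the 225 that lay in coding sequence had a length not divisible by 3. Their length ran from 12 to 2333 nt with a median of 73 nt and quartiles of 53.5 and 104 nt. Microexons made up 76 of the 319 (23.8%), and 12 were at most 27 nt. A length of more than 200 nt was found in 16. Division by 3 left a remainder of 0 in 95 exons (29.8%), of 1 in 112 and of 2 in 112. Of the microexons 26 of 76 were divisible by 3, and of those of at most 27 nt 6 of 12. AG stood before 317 of the exons. GT stood after 313, GC after 4 and CT after 2, each read on the strand given for the event. That strand differed from the annotated one in 2 events, so the CT count need not mean unusual splice sites.

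**Figure D1:**
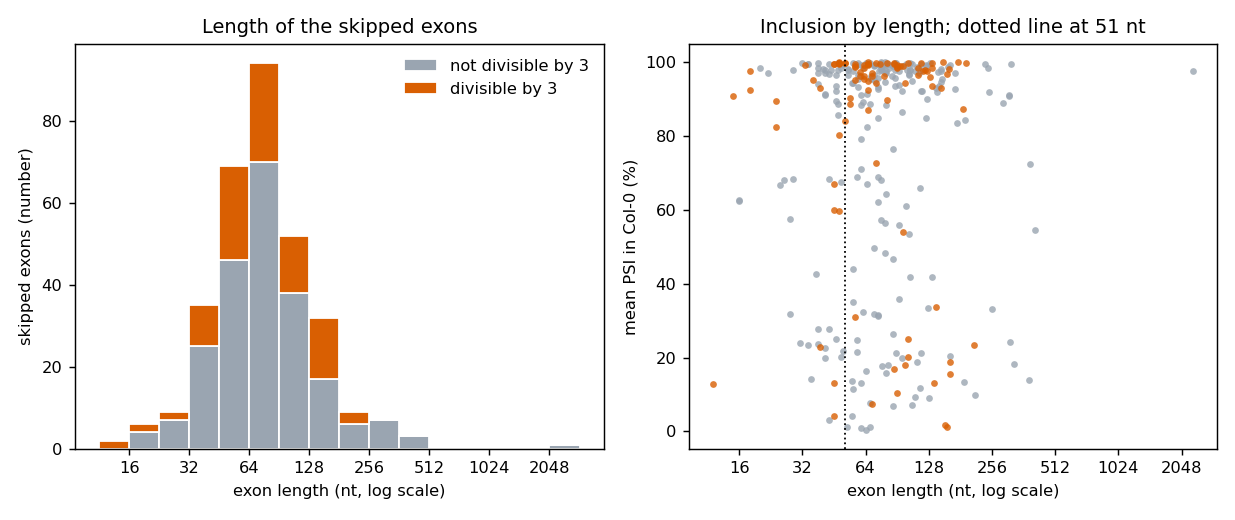
Left, the number of skipped exons by length in nt on a log scale, stacked by whether the length is divisible by 3. Right, mean PSI in Col-0 (2 libraries) against the same length axis, 1 dot per exon, with a dotted line at 51 nt. Of 319 exons 95 are divisible by 3, the median length is 73 nt, and 153 exons lie at 95% or more.

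Nearly constitutive and intermediate exons were about equally common. In Col-0 153 exons had a mean PSI of at least 95%, 157 lay between 5% and 95%, and 9 were at 5% or less. The share divisible by 3 was 35.9% in the first class and 23.6% in the second. Median PSI over exons with at least 10 reads in every library was 97.0% for lengths divisible by 3 (92 exons, SD 0.648 over 18 library medians) and 94.0% for other lengths (220 exons, SD 0.984). In every library the value for other lengths lay below that for lengths divisible by 3, since the ranges were 91.7% to 95.2% and 95.6% to 97.6%. Exons are not replicates, and no test was made. The median was 93.5% for microexons, 96.02% for 52 to 100 nt and 95.6% for lengths above 100 and up to 200 nt. It was 79.4% for the 16 exons over 200 nt, ranging from 72.1% to 86.1% over libraries. The 12 exons of at most 27 nt stood at 87.3%.

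Within coding exons that the reference transcript contains, the medians by divisibility lay close together. The reference transcript is the annotated one with the longest coding sequence that either contains or skips the exon. Its coding exons had a median PSI of 98.4% when divisible by 3 (59 exons) and 98.3% when not (110 exons). Absent from that transcript were 47 of 158 coding exons not divisible by 3 and 7 of 67 divisible ones. Exons absent from it had median PSI values of 27.05% and 19.2%. The annotation rests partly on which form is usual, so this is a description.

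Position in the gene went with inclusion. Coding exons (222 deep enough) had a median PSI of 96.8%, and exons within the 5' UTR (47) one of 46.3%, with a range of 37.5% to 55.9% over libraries. The 16 exons that hold the start codon stood at 97.3%. The 225 coding exons were divided by what each form does to the reading frame of the reference transcript. An early stop is one more than 50 nt before the last junction that is not the annotated stop. By this definition the form of the reference transcript never has one. Exons with an early stop when included are thus all absent from that transcript, and those with one when skipped all lie in it. The 90 exons with an early stop in neither form had a median of 98.2%. The 88 with an early stop when skipped also had 98.2%. The 47 with an early stop when included had 25.5% (19.6% to 33.3% over libraries). Halving the inclusion reads lowered the latter to 14.9% and left the others at 97.5% and 97.7%. Stop class and presence in the reference transcript cannot be told apart here, so these levels are a description.

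**Figure D2:**
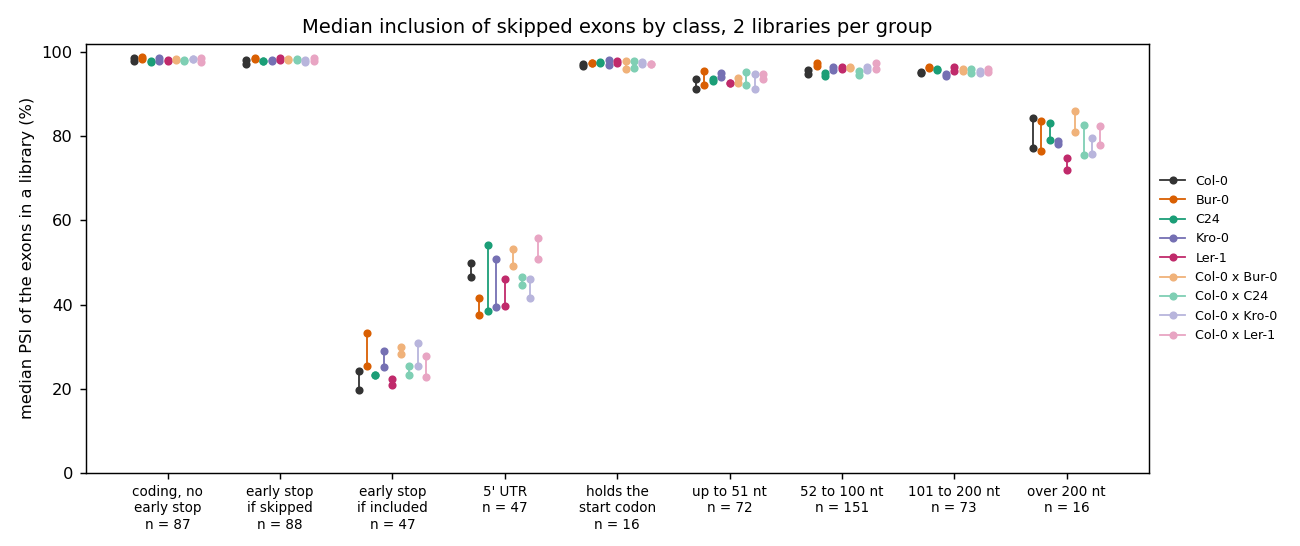
Each dot is the median PSI (%) over the exons of a class in 1 library, a line joins the 2 libraries of a group, colours mark the 9 groups and n is the number of exons with at least 10 reads in every library. In all 18 libraries the class median stays at or below 33.3% for exons that bring an early stop when included. It stays at or below 55.9% for 5' UTR exons and 86.1% for exons over 200 nt, while single exons can lie higher. By definition the exons with an early stop when included are all absent from the reference transcript.

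Annotation was tied to level as well. The 145 exons whose inclusion alone is annotated had a median PSI of 98.8%, the 115 with both forms annotated 76.3%, and the 40 with skipping alone annotated 27.1%. The remaining 19 had neither form annotated and stood at 96.8%. Of these 19, 14 had flanking junctions that differed more than 4 times.

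The shortest exons ranged from nearly constitutive to rare. The 18-nt exon of NAP1;2, a histone chaperone, had PSI values of 97.3% and 98.1% in Col-0 and between 95.8% and 98.9% over all 18 libraries. The 18-nt exon of SFH3, a SEC14-like protein, had 93.9% and 90.9% in Col-0. Skipping either one removes 6 codons (379 to 373 in NAP1;2, 548 to 542 in SFH3). The 20-nt exon of AT3G60910, a methyltransferase family gene, stood at 98.3% and 98.4% in Col-0, and its loss cuts the reading frame from 252 to 125 codons. The 25-nt exon of AT2G30600, a BTB/POZ domain gene, was in 69.2% and 64.4% of Col-0 reads, and its inclusion brings an early stop (481 in place of 809 codons). The shortest exon of all, 12 nt in the 5' UTR of RHC1A, a RING finger gene, was rare at 14.0% and 11.4%.

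Of these 12 exons, 2 differed among the 5 accessions by edgeR (16.7%, beside 19.8% of all events). The 26-nt 5' UTR exon of AT1G61150 had 84.4% and 84.6% in Bur-0 and 32.6% and 56.5% in Ler-1, with Col-0 at 68.3% and 68.0% (adjusted p = 0.00789). The Bur-0 libraries lay above all other accession libraries. That call was lost without Bur-0 replicate 1 (adjusted p = 0.0821) or replicate 2 (0.0936). The 16-nt exon of VAB2, a subunit of the vacuolar proton pump, had 82.3% and 84.2% in Ler-1 and 56.8% and 68.8% in Col-0 (adjusted p among accessions = 0.00135). VAB2 carries 3 skipped exon events that share an upstream junction with 2543 reads over all libraries, while the downstream junction of its 92-nt exon had 45, so these events share most of their reads.

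Longer microexons included some of the deepest events. The 48-nt exon of MT3, a metallothionein, had 407710 reads with 46085 inclusion and 0 skipping reads in Col-0, an upper limit of 0.00651% skipping at 3 reads. OEP16-1 (32 nt), a plastid outer envelope channel, and SNG1 (38 nt), which makes sinapoylmalate, had PSI values no lower than 99.84% and 99.18% in any library. In 2 genes a 48-nt coding exon divisible by 3 was skipped a little more in some accessions. PTAC7, a plastid transcription component, had 5 skipping reads beside 6450 inclusion reads in Col-0 and 44 beside 4964 in Bur-0. Its PSI was lower in Ler-1 (98.1% and 98.3% against 99.9% and 99.9%, with 5728 inclusion reads in Ler-1, adjusted p = 0.000127) and in Bur-0 (adjusted p = 0.00341). The Bur-0 call was lost without Col-0 replicate 1 (0.0681) or Bur-0 replicate 2 (0.0747). AT4G32470 had 8 skipping reads beside 7539 in Col-0 and 71 beside 5292 in Bur-0 (adjusted p = 0.000714). Among the accessions 13 of 74 tested microexons were called (17.6%), 38 of 152 exons of 52 to 100 nt (25%), 13 of 73 above 100 and up to 200 nt (17.8%) and 3 of 16 over 200 nt, beside 19.8% of all events. The difference between these classes was not tested.

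Skipped exons of splicing regulators had low inclusion by median, as had the whole class of exons that bring an early stop when included. A list of 32 splicing factor and RNA-binding protein genes held 8 genes with 9 skipped exon events, whose median PSI in Col-0 was 20.4%, beside 94.6% over all skipped exons and 23.6% over the 47 exons with an early stop when included. PTB3 and SR45a lay well above that median, and no test was made. Inclusion of 7 of these 9 brings an early stop, so the 9 events and the 47 exons overlap and their medians are not separate. The exception among the coding ones is the 124-nt exon of PTB3, where skipping brings the stop, and its PSI was 99.2% and 98.7% in Col-0. The last is a 67-nt exon in the 5' UTR of RS40, at 7.28% and 8.19%.

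The 162-nt exon of SCL33 and the 161-nt exon of SCL30A, printed above, were identical at 139 of 163 aligned positions (85.3%), and both put the stop codon at base 32 of the exon. Inclusion shortens the reading frame from 287 to 84 codons in SCL33 and from 262 to 85 in SCL30A. Their PSI in Col-0 was 11.6% and 19.7%, and 18.1% and 22.7%. A length divisible by 3 thus did not keep the frame open in SCL33. In RS40 and RS41, another pair of SR protein genes, the poison exons of 257 and 326 nt shared 63.0% identity. RS40 stood at 33.2% and 33.3% in Col-0 and RS41 at 18.2% and 18.3%. The exons of PTB1 (102 nt, stop at base 19) and PTB2 (58 nt, stop at base 34) shared only 38.3% identity. They had similar levels, 13.2% and 26.9% in PTB1 and 15.9% and 27.03% in PTB2.

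SR45a was the 1 event of the 9 that differed among the accessions (adjusted p = 0.0258, against 19.8% of all tested events called in this comparison). Its 96-nt exon had 21.2% and 32.4% in C24. Col-0 had 45.5% and 62.7%, Bur-0 54.5% and 59.3%, Kro-0 62.5% and 66.7%, and Ler-1 50.4% and 49.5%. The C24 libraries lay below all others. The call was lost without Bur-0 replicate 1 (0.0596) or 2 (0.0661), C24 replicate 1 (0.206) or 2 (0.0728), or Kro-0 replicate 2 (0.0691), and with the inclusion reads halved (0.0843). In no single comparison with Col-0 was an event of the list called.

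TFIIIA, the transcription factor of a ribosomal RNA, carries a 175-nt exon that resembles that RNA and is known to be regulated by ribosomal protein. It had 82.9% and 84.1% in Col-0, and its inclusion brings a stop at base 52 and cuts the frame from 427 to 123 codons. Among 22 clock genes 1 had a skipped exon event. The 118-nt exon of PRR7, a repressor in the clock, had 22.6% and 19.9% in Col-0 and 17.8% to 26.3% over the accessions. Neither TFIIIA (adjusted p = 0.665) nor PRR7 (adjusted p = 0.713) passed the test among accessions by edgeR. None of 17 flowering genes held a skipped exon event.

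**Figure D3:**
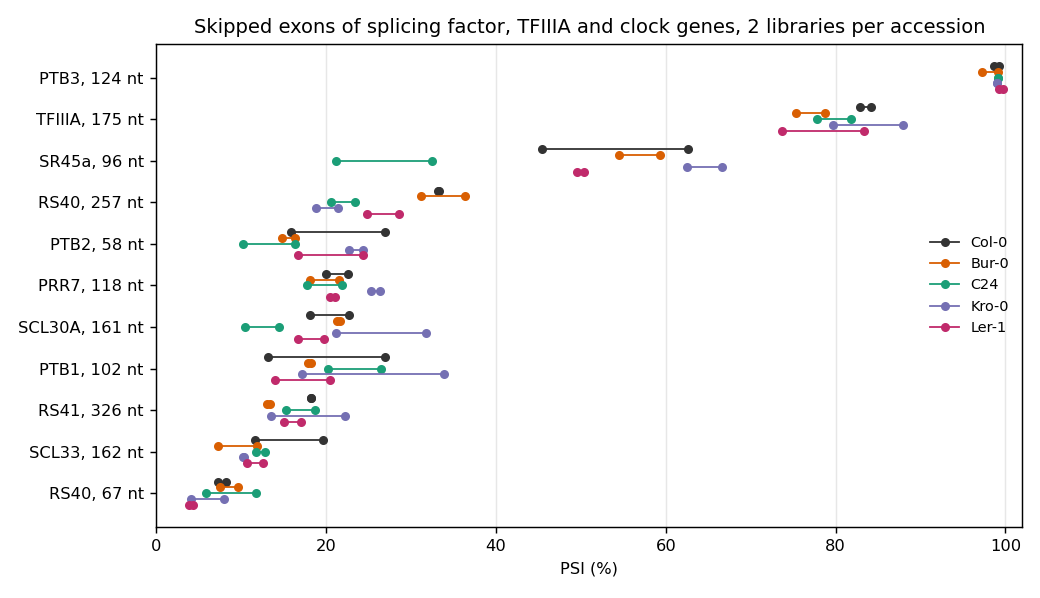
PSI (%) of the 11 skipped exons in splicing factor, TFIIIA and clock genes, with dots for the 2 libraries of each accession joined by a line. Apart from PTB3, TFIIIA and SR45a the exons lie below 40%, and the C24 libraries of SR45a lie at 21.2% and 32.4%, left of the other accessions.

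The comparison of accessions asked where inclusion had diverged between the parents of the hybrids. Among the 5 accessions 67 of 316 tested skipped exons were called (21.2%, against 19.8% of all events) by edgeR's quasi-likelihood test with Benjamini-Hochberg adjusted p-values below 0.05. The means of the called exons spanned at least 10 points in 30 and less than 5 points in 31. By stop class 25 of 89 exons with no early stop in either form were called, 13 of 88 with one when skipped, and 8 of 47 with one when included.

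Set against Col-0, Bur-0 had 32 of 318 tested exons called (10.1%, beside 8.95% of all events). C24 had 16 of 317 (5.05%, beside 6.02%), Kro-0 12 of 317 (3.79%, beside 5.19%) and Ler-1 27 of 318 (8.49%, beside 6.97%). The shares lay near those over all events. In Bur-0 inclusion was higher in 21 of the called exons (4.56% of all events) and lower in 11 (4.4%). In C24 it was higher in 6 (2.6%) and lower in 10 (3.42%). In Kro-0 it was higher in 8 (1.92%) and lower in 4 (3.28%). In Ler-1 it was higher in 15 (2.8%) and lower in 12 (4.17%). These splits depended on the setting. With only the 4 compared libraries in the fit they were 9 higher and 11 lower for Bur-0, 2 and 3 for Kro-0, and 8 and 10 for Ler-1. Without Col-0 replicate 1 they were 5 and 8 for Bur-0, 2 and 3 for Kro-0, and 3 and 4 for Ler-1. Bur-0 had 4 and 7 without its replicate 1, 5 and 7 without its replicate 2, and 11 and 11 with DESeq2. limma on PSI called 10 skipped exons for Bur-0 (5.84% of all events), 13 for C24 (5.5%), 6 for Kro-0 (4.64%) and 10 for Ler-1 (4.28%), and 25 in the test over all 5 accessions (11.8%). The median log2 odds difference over tested skipped exons was 0.36 for Bur-0 (0.05 over all events), -0.02 for C24 (-0.06), 0.20 for Kro-0 (-0.12) and -0.03 for Ler-1 (-0.07). Without Col-0 replicate 1 these medians were 0.07 for Bur-0, -0.19 for C24, -0.06 for Kro-0 and -0.23 for Ler-1, and without Col-0 replicate 2 they were 0.53, 0.22, 0.42 and 0.23. TMM factors turned C24 to 0.04 and Ler-1 to 0.03. These 4 comparisons share the Col-0 libraries, which therefore enter all of them. The difference was at least 10 points in 10, 6, 2 and 9 exons. It was below 5 points in 19, 8, 10 and 15.

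In Bur-0 the largest differences went both ways. In AT1G36070 the 41-nt exon rose from 19.6% and 25.8% in Col-0 to 66% and 69.2% (adjusted p = 0.000569). The other accessions had 14.3% to 45.0%. Inclusion brings a stop at base 31 of the exon, so that 114 in place of 418 codons remain. AT5G09880, a CC1-like splicing factor gene, moved the same way with its 76-nt exon, from 51.9% and 62.7% to 87.1% and 85.8% (adjusted p = 6.09e-05). In the TAIR10.1 sequence its inclusion also brings an early stop (230 in place of 527 codons). By the coordinates in the Bur-0 event names the exon is 75 nt long in that assembly. Whether its inclusion brings that stop in Bur-0 was not determined. In AT1G13350, a protein kinase gene, an 86-nt exon that brings an early stop rose from 44.8% and 48.5% to 72.8% and 75% (adjusted p = 0.0069), a call lost without Col-0 replicate 1 (0.0626), Bur-0 replicate 1 (0.0662) or Bur-0 replicate 2 (0.0865).

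The falls in Bur-0 were led by AT5G37380, a DnaJ-domain gene, whose 43-nt 5' UTR exon had 68.7% and 68.1% in Col-0 and 22.7% and 25% in Bur-0 (adjusted p = 0.00341). Bur-0 was the lowest of all groups, and the call was lost without Bur-0 replicate 1 (0.0681). In ATG8E, an autophagy protein, the 48-nt exon with the start codon had 1263 inclusion and 0 skipping reads in Col-0. Bur-0 had 247 and 48, a PSI of 86.1% and 80.6% (adjusted p = 4.01e-07). No other accession had a skipping read there. Its 56-nt coding exon behaved differently. C24 had 27 skipping beside 577 inclusion reads there (95.9% and 94.4%), and the other 4 accessions had 0 (adjusted p for C24 = 4.01e-05). HSP93-III, a chloroplast import chaperone, had a rare 45-nt 5' UTR exon at 3.19% and 5.42% in Col-0 and 13.3% and 22.1% in Bur-0 (adjusted p = 0.00773), a call lost without Col-0 replicate 1 (0.0966) or Bur-0 replicate 2 (0.204).

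The leading differences in C24 included coding exons with skipping reads where the other accessions had none. The 66-nt exon of AT3G05160 had 265 inclusion and 108 skipping reads in C24, a PSI of 67.2% and 74.9%. The other 4 accessions had 0 skipping reads, with 492 inclusion reads in Col-0 (adjusted p = 3.95e-07). Skipping removes 22 codons and keeps the frame (458 to 436). CAT3 showed the same picture in its reads, with 35 skipping reads in C24 and 0 in each other accession (PSI 68.4% and 79.0% against 98.5% and 99.0% in Col-0, adjusted p = 0.000115). Its 76-nt exon is not divisible by 3, so skipping shifts the frame (609 to 561 codons). ATMAK3, an N-terminal acetyltransferase, had a 34-nt 5' UTR exon at 99.4% and 99.5% in Col-0, 79.8% and 61.1% in C24 (adjusted p = 4.94e-06) and 86.5% and 91.5% in Bur-0 (adjusted p = 0.000485). Both C24 libraries lay below both Bur-0 libraries.

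Other C24 exons moved within the middle or low range. DRH1, a DEAD box RNA helicase gene, has a 212-nt exon whose inclusion brings an early stop (221 in place of 619 codons). It fell from 7.47% and 12.5% in Col-0 to 0.210% and 1.29% in C24 (adjusted p = 8.83e-05), while Kro-0 had 10.2% and 15.1%. In AT5G48220, an aldolase-type gene, a 95-nt exon with a stop at base 4 rose from 16.2% and 23.6% to 47.7% and 36.4% (adjusted p = 0.0144). That call was lost without Col-0 replicate 1 (0.19) or C24 replicate 1 (0.222). ICR1, an effector of ROP GTPases, had 52 inclusion and 8 skipping reads at its 63-nt 5' UTR exon in C24 and 143 and 0 in Col-0 (adjusted p = 0.0152), a call lost on leaving out any of the 4 libraries compared (adjusted p up to 0.186).

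PAT1, a GRAS protein of phytochrome A signalling, differed in steps over the accessions. Its 80-nt 5' UTR exon is annotated both in and out. Ler-1 was highest with 99.0% and 99.1%, followed by C24 with 86.7% and 83.2%. Bur-0 had 69.4% and 70.8%, Col-0 63.5% and 65.0%, and Kro-0 60.9% and 60.0%. Ler-1 had 2 skipping reads beside 420, and Col-0 197 beside 360. The test against Col-0 gave an adjusted p of 1.03e-08 for Ler-1 and 0.00466 for C24, the latter lost without C24 replicate 1 (0.124). A second event with the same exon but another skipping junction had 89.0% and 88.1% in Col-0 and 99.1% and 99.3% in Ler-1 (adjusted p = 0.000249). It shares the upstream junction with the first.

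In Ler-1 a further group of exons had lower inclusion. Across AT1G19715 and AT1G19720 (listed as AT1G19715_AT1G19720), 2 events with a 103-nt exon were called. One had 97.3% and 96.1% in Col-0 and 74.2% and 76.9% in Ler-1 (adjusted p = 0.00184), and the other 48.4% and 58.6% against 28.7% and 26.3% (adjusted p = 0.00572, lost without Col-0 replicate 2 at 0.0851 or Ler-1 replicate 2 at 0.0616). Both use an upstream junction with 871 reads beside downstream junctions with 54 and 103, so they share most of their inclusion reads. AT5G21222, a protein kinase gene, had 27 inclusion and 156 skipping reads at a 188-nt 5' UTR exon in Col-0 and 0 and 173 in Ler-1 (upper limit 1.73%, adjusted p = 0.00243). That call was lost without Col-0 replicate 1 (0.0998) or Ler-1 replicate 2 (0.0531). By the coordinates in the Ler-1 event names the exon is 144 nt long in the Ler-1 assembly. Exon length differed from TAIR10 for 5 events by the Bur-0 names, 9 by those of C24, 6 by those of Kro-0 and 5 by those of Ler-1. By any of these names it differed for 16 events, of which 3 were called in the accession concerned. These were 2 in Bur-0 (beside 8.95% of all events called) and 1 in Ler-1 (beside 6.97%), with 0 in C24 (6.02%) and Kro-0 (5.19%). The 2 in Bur-0 are events of AT5G09880 with the same skipping junction, so they share reads. LIG1, DNA ligase 1, had 11 skipping beside 165 inclusion reads at its 57-nt exon in Ler-1 and 0 beside 195 in Col-0 (adjusted p = 0.0223), a call lost on leaving out any of the 4 libraries compared (adjusted p up to 0.215).

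Kro-0 had the fewest calls, but depth differed between the accessions. The median skipped exon event had 108 and 125 reads in the Kro-0 libraries and 106 and 102 in those of C24. It had 164 and 161 in Bur-0 and 162 and 174 in Ler-1. The effect of depth on the numbers of calls was not tested, so these numbers do not rank the accessions by divergence from Col-0. The 57-nt exon of AT4G10060, a glucosylceramidase-type gene, had 313 inclusion and 37 skipping reads there (94.8% and 84.3%) and 598 and 0 in Col-0 (adjusted p = 0.000242). No other accession had a skipping read. In ATSRL1, a PRP38-family splicing gene, the 112-nt exon with an early stop was at 39.1% and 37.3% in Kro-0 and 17.5% and 20.1% in Col-0 (adjusted p = 0.0435). That call was lost without any 1 of the 4 libraries (adjusted p up to 0.21) and missed the threshold with the inclusion reads halved (adjusted p = 0.106).

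The second exon of AT3G05160 varied in its own way. The 63-nt exon had 95.6% and 97.2% in Col-0 with 30 skipping reads beside 852. Kro-0 had 819 inclusion and 0 skipping reads (adjusted p = 0.0013) and Bur-0 1212 and 4 (adjusted p = 0.00402, lost without Col-0 replicate 1 at 0.0841 or Bur-0 replicate 1 at 0.0982). Ler-1 was lowest with 744 and 87, a PSI of 89.5% and 89.1% (adjusted p = 0.0223, lost on leaving out any of the 4 libraries, up to 0.218). C24, the accession that skipped the 66-nt exon, had 95.7% and 95.6% at the 63-nt exon.

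**Figure D4:**
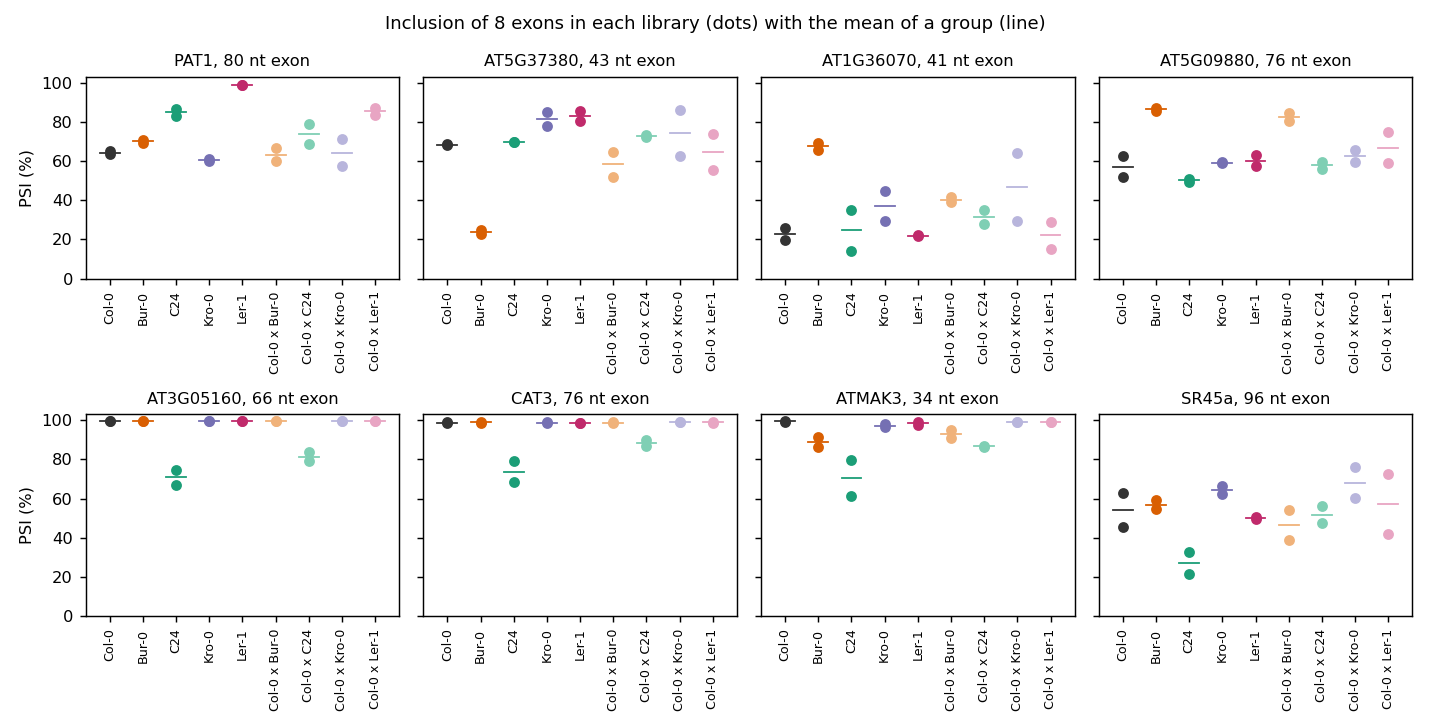
PSI (%) of 8 skipped exons in each of the 18 libraries (dots) with the group mean (line), accessions to the left and hybrids with Col-0 to the right. PAT1 is near 99% in Ler-1, AT5G37380 is lowest in Bur-0, AT1G36070 and AT5G09880 are highest in Bur-0, and AT3G05160, CAT3 and ATMAK3 are lowest in C24.

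Some exons were called against Col-0 in several accessions. In all 4 comparisons 3 exons were called, those of PDX2, AT3G62370 and CYSC1. Since the comparisons share the Col-0 libraries, such recurrence is no separate result, and each accession's own reads are given. PDX2, the glutaminase of vitamin B6 synthesis, had 33 skipping beside 1534 inclusion reads in Col-0 at its 74-nt exon. Bur-0 had 0 beside 1725 (upper limit 0.174%), C24 0 beside 831, Kro-0 0 beside 841 and Ler-1 0 beside 1709. AT3G62370, a heme-binding protein gene, had 11 skipping beside 252 inclusion reads in Col-0 at its 71-nt exon and 0 in each other accession. CYSC1, a mitochondrial cyanoalanine synthase, had 49 beside 8494 in Col-0 at its 58-nt exon and 2 to 7 in the others. In all 3 exons skipping brings an early stop. The adjusted p ran from 0.000302 to 0.00503 for PDX2, from 0.0197 to 0.0458 for AT3G62370 and from 0.00247 to 0.0296 for CYSC1.

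The calls in Bur-0 and Ler-1 at PDX2 held on leaving out any library. Those in C24 were lost without C24 replicate 1 (0.104) or replicate 2 (0.0617), and that in Kro-0 without Kro-0 replicate 2 (0.0516). Those at AT3G62370 were lost without Col-0 replicate 1 in all 4 accessions (0.15 to 0.254) and without other libraries too. Those at CYSC1 were lost without Col-0 replicate 1 in C24 (0.222), Kro-0 (0.206) and Ler-1 (0.247), and in Bur-0 without Bur-0 replicate 1 (0.054).

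TAP38, the phosphatase of the light-harvesting complex, and MPK15, a MAP kinase, had the same direction in 3 comparisons each. TAP38 had 18 skipping beside 8193 inclusion reads in Col-0 at its 47-nt exon and 0 in each other accession. MPK15 had 15 beside 502 in Col-0 at its 156-nt exon and 0 in each other accession. Their calls were lost without Col-0 replicate 1, with adjusted p from 0.0939 to 0.207 for TAP38 and from 0.135 to 0.201 for MPK15. BGLU44, a beta-glucosidase, went the other way. It had 1 skipping beside 9038 inclusion reads in Col-0 at its 76-nt exon, 86 beside 7583 in Bur-0 (adjusted p = 0.000107), 32 beside 3689 in Kro-0 (0.000851) and 42 beside 6236 in Ler-1 (0.00137). C24 had 2 beside 5487. AT5G58990, a mitochondrial ribosomal protein gene, likewise had 0 skipping beside 622 inclusion reads in Col-0 at its 43-nt exon and 3 to 13 skipping reads in each other accession.

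Hybrids were set against the mid-parent value to ask whether inclusion in the F1 was additive. For edgeR and DESeq2 the mid-parent was the mean of the parents' log odds, so additivity was asked on that scale. For limma it was the mean of the parents' PSI values. By edgeR 0 skipped exons were called in each of the 4 hybrids. Over all events the share called was 0.098% for Col-0 x Bur-0, 0.0597% for Col-0 x C24, 0.0795% for Col-0 x Kro-0 and 0.137% for Col-0 x Ler-1. limma called 1 skipped exon in Col-0 x Bur-0 (0.392% of all events) and 0 in Col-0 x C24 (0.219%), Col-0 x Kro-0 (0.278%) and Col-0 x Ler-1 (0.0586%). At an unadjusted edgeR p under 0.05 there were 21 of 317 tested skipped exons, 19 of 317, 17 of 314 and 24 of 318. A share of about 0.05 would pass that threshold with no departure at all, and the share over all events was not computed. These counts are therefore no result about skipped exons. In simulated data with C24 depths the test recovered 64% of events changed by a log2 odds of 2 in Col-0 x C24 and 8% of those changed by 1, so departures of the smaller size were seldom detected there. The changed events were drawn from all event types at intermediate inclusion. The recovered shares therefore do not cover exons near full inclusion or full skipping. The other hybrids were not simulated.

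Other tools called 2 exons in the hybrids. limma on PSI called the second event of PAT1 in Col-0 x Bur-0 (adjusted p = 0.00905). The hybrid had 77.3% and 77.3% there, below both Col-0 (89.0% and 88.1%) and Bur-0 (85.8% and 87.9%). At the first event of PAT1 the hybrid had 60.0% and 66.7%, overlapping the Col-0 libraries. DESeq2 called the 66-nt exon of AT3G05160 in Col-0 x C24 (adjusted p = 0.0255), as did edgeR with the inclusion reads halved (adjusted p = 0.0497). The hybrid had 79.1% and 83.6% there, between C24 and Col-0, where Col-0 had no skipping read and its fitted odds are not bounded.

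At exons called between the parents, which were chosen for parental values far apart, the hybrid values are given as a description. The mid-parent values printed here are means of the parents' PSI values, not of their log odds. The AT1G36070 exon had 39.0% and 41.5% in Col-0 x Bur-0, with a mid-parent value of 45.1%. The AT5G09880 exon had 84.9% and 80.4% (mid-parent 71.9%), and the AT5G37380 exon 64.5% and 52.2% (mid-parent 46.1%). The PAT1 exon had 87.4% and 83.8% in Col-0 x Ler-1, with a mid-parent value of 81.7%. CAT3 had 86.9% and 90.1% in Col-0 x C24 (mid-parent 86.2%). At the ATSRL1 exon Col-0 x Kro-0 had 39.4% and 41.4%, both above the Kro-0 parent at 39.1% and 37.3%.

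**Figure D5:**
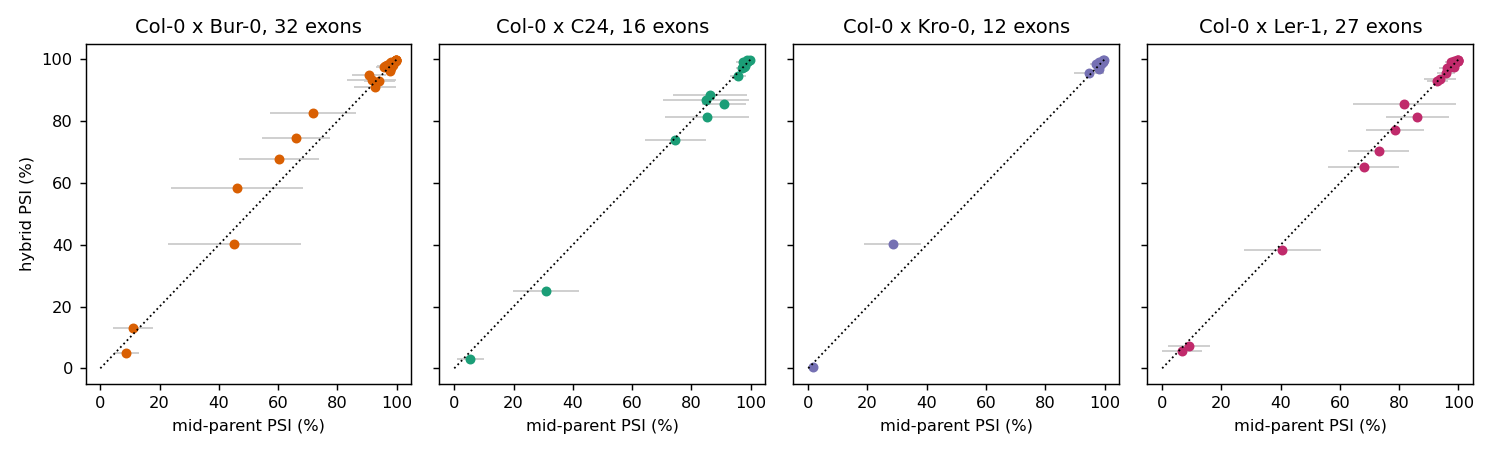
Mean PSI (%) of each hybrid against the mean of its parents for the exons called between those parents (dots, 2 libraries per group), with a grey line from the lower to the higher parental mean and a dotted line of equality. The dots lie along the line of equality, with the AT5G37380 and AT5G09880 exons above it in Col-0 x Bur-0 and the ATSRL1 exon above it in Col-0 x Kro-0.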

How the data were processed

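Reads of both forms of each splicing event were used as deposited, as whole-number counts per library, with PSI deposited as a fraction (inclusion reads over both forms plus 1, a formula that held in every row) and printed here in percent. HISAT2, edgeR 3.0.8 and the TAIR10 build are named, per the submitters' processing notes, without their roles. Whether counting used strand is not given in the sources used here, so overlapping genes may share reads.

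Each library entered as 2 columns, and edgeR 4.0.16 (R 4.3.3) fitted its quasi-likelihood test with a term per library and a form-by-group term over the 5403 common events. An event was tested when every library in the comparison had 10 reads or more. The accessions were fitted over 10 libraries and the hybrids over 18, and p-values were Benjamini-Hochberg adjusted over all tested events of all types. limma 3.58.1 on PSI, DESeq2 1.42.0, TMM factors, other depth minimums, a replicate block, halved inclusion reads (added after seeing the data) and leaving out each library were alternatives. The fit was tested on simulated data. With C24 depths against Col-0 it recovered 65% of events changed by a log2 odds of 2 and 8% of those changed by 1. Changed events were of all types and at intermediate inclusion, so nearly constitutive exons were not covered. Upper limits are 3 reads over the total and cover counting error only, since reads carry no molecular identifiers.

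Exon length, position and reading frame came from the TAIR10.1 RefSeq genome and annotation, not from the accessions' own sequence. Named exons were the 8 called with the largest non-overlapping difference in each comparison with Col-0, those called in 2 or more, exons of at most 27 nt, the 6 longer microexons with the most reads, called hybrid events, listed regulators, the 5 events with the most reads and the 3 longest. Not all of these are printed. The exons and lists were chosen with earlier results of these data known.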

Additional observations from a re-analysis of the deposited data

How the results depend on the processing

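With limma on PSI 10 skipped exons were called in Bur-0, 6 in Kro-0, 10 in Ler-1, 25 among the accessions and 1 in Col-0 x Bur-0. With DESeq2 6 were called in Kro-0, 16 in Ler-1 and 1 in Col-0 x C24, and halved inclusion reads, added after seeing the data, also gave 1 there. With only the 4 compared libraries in the fit 20 were called in Bur-0 and 5 in Kro-0. Leaving out 1 library, so that the lone library of its group was assumed to vary like the other groups, gave 11 to 29 in Bur-0, 7 to 10 in C24, 4 to 10 in Kro-0, 7 to 17 in Ler-1, 41 to 74 among accessions and 0 in each hybrid. Of 66 named calls against Col-0, 18 held without any 1 library, 47 with DESeq2, 22 with limma, 62 with halved reads and 66 with TMM factors, which moved the median log2 odds of all events in Kro-0 from -0.12 to -0.02. The labels do not say whether same-numbered replicates of different groups share a batch. Over 4900 events the correlation of their deviations was -0.127 to 0.254 over 36 pairs of groups, 12 over 0.1. Median PSI over skipped exons was lower in replicate 1 than in replicate 2 in all groups but Bur-0 and C24. The replicate block called 34, 16, 12 and 26 exons in Bur-0, C24, Kro-0 and Ler-1, 74 among accessions, 1 in Col-0 x C24 and 0 in the other hybrids. Shares called over all events were computed for the main edgeR fit and limma only. The counts in the other settings therefore do not show whether a change was particular to skipped exons. The cause of these changes was not tested.

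Counted per junction, median PSI was 95.4% for lengths divisible by 3, 90.6% for others, 89.6% up to 51 nt, 94.1% for 52 to 100 nt, 93.4% for lengths above 100 and up to 200 nt and 68.6% over 200 nt. As a plain share of reads it was 95.04% for lengths not divisible by 3, 96.9% for 52 to 100 nt and 96.6% above 100 and up to 200 nt. With 1 event per exon and gene it was 95.1% for lengths not divisible by 3, and with a microexon limit of 27 nt 87.3%. Exons over 200 nt stood at 88.6% with at least 20 reads in every library and at 69.5% without unequal junctions, which put lengths above 100 and up to 200 nt at 96.2%. No named call against Col-0 changed sign under DESeq2, limma, TMM factors, the replicate block, halved inclusion reads or leaving out 1 library. The higher and lower splits and the median log2 odds against Col-0 did turn in some settings, as given above.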
